A study of Mus musculus with 9 samples.

Results

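S100 proteins are small calcium-binding proteins of the EF-hand type, and annexins are proteins that bind acidic phospholipids of membranes when calcium is present. The genes described here are 6 S100 genes (S100a1, S100a4, S100a6, S100a10, S100a11 and S100a13) and 4 annexin genes (Anxa1, Anxa2, Anxa3 and Anxa8), chosen by gene symbol from the probe sets of the array that name a single gene. Of these 10 genes, 9 were measured, through 16 probe sets, of which 14 reached a signal over 500 on at least 1 array and were tested. The remaining gene, S100a11, shares its 1 probe set with other gene symbols and is not reported. In the whole series 7952 genes had a tested probe set.

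The arrays held RNA of mouse ovarian surface epithelial (MOSE) cells, a cell series from C57BL6 mice that transformed spontaneously while it was passaged in culture, with no allele or agent introduced. MOSE-E cells, the early and non-tumorigenic stage, were taken at passages 13, 14 and 15, MOSE-I cells, the intermediate stage, at passages 63, 71 and 73, and MOSE-L cells, the late and malignant stage, at passages 136, 142 and 143. The 3 arrays of a stage are biological replicates by the study's account, and the comparisons ask how expression differs as the cells move from the early to the malignant stage. All 9 cultures belong to 1 cell series, so that p-values measure the spread between these cultures, and malignant stage and time in culture cannot be told apart.

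An S100 protein typically changes its shape when it binds calcium and then attaches to a target protein, while an annexin attaches to the inner face of the plasma membrane or to vesicles and organizes them. The families meet in shared complexes. S100a10 (also called p11) is an unusual S100 protein that does not depend on calcium, and it holds Anxa2 at the membrane, where the complex links membranes to actin and, on the cell surface, binds tissue plasminogen activator and plasminogen. S100a11 binds Anxa1, S100a6 (calcyclin) binds several annexins, and S100a4 (metastasin) binds the heavy chain of non-muscle myosin. The ovarian surface epithelium, from which these cells came, is a mesothelial layer that rests on a collagen-rich stroma.

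The signals are linear MAS 5.0 intensities, which have no unit, and a difference between stages is given as the log2 change of the signal plus 50. A gene counted as called where its adjusted p did not exceed 0.05 and its log2 change reached 1 in either direction, and it was represented by its probe set with the highest mean signal. Over the 9 arrays the median signal ran from 93.1 to 130.0, and between 10075 and 11104 probe sets lay over 500. Of 12 epithelial and mesothelial markers, 11 were over 500 on at least 1 array, and the epithelial adhesion gene Epcam was not. None of 6 endothelial markers and 1 of the 7 leukocyte markers on the array (Csf1r, at most 595) passed 500. The summed signal of the leukocyte list was 579.9 to 679.9 on the MOSE-E arrays, 654 to 1143 on the MOSE-I arrays and 759.8 to 823 on the MOSE-L arrays. Of 9 fibroblast markers, 7 were over 500. The summed signal of the epithelial list was 88291 to 97511 on the MOSE-E arrays, 61282 to 84364 on the MOSE-I arrays and 56771 to 74493 on the MOSE-L arrays, and that of the fibroblast list 93097 to 175085, 75785 to 125518 and 70543 to 85516. These sums add probe sets of unlike scale and are led by the brightest genes, while the members of a list went different ways. In MOSE-L against MOSE-E cells 5 of the 11 tested epithelial and mesothelial genes were called lower, among them Krt7 (25.8-fold) and Cdh1 (14.1-fold), and 0 higher, while the mean of Wt1 was 1.98-fold higher without a call. Of the 7 tested fibroblast genes 2 were called lower, among them Col1a2 (160.1-fold), and 1 higher, Dcn (4.53-fold). The part of these shifts in the results below was not tested. In bulk cultures like these, fewer cells of a type and less RNA per cell cannot be told apart.

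Upstream sequences were taken from RefSeq (mouse assembly GRCm38.p6), which gave a window of 250 bases for 8 of the 10 genes, all but S100a10 and Anxa3. The windows end at the base before the gene start, except that of S100a13 (chr3:90514185-90514434). The gene range of S100a13 used below starts at 90514233, so that part of its window lies inside that range. They are shown for Anxa8 and S100a4, which were called lower in MOSE-L cells, and for Anxa2, the partner of S100a10. The windows are chr14:34085729-34085978 (plus strand) for Anxa8, chr3:90603520-90603769 (plus strand) for S100a4 and chr9:69453433-69453682 (plus strand) for Anxa2, each written 5′ to 3′ and ending at the base before the gene start. Capitals mark 3 motifs searched on both strands: TATAAA, the GC box GGGCGG and the AP-1 site TGANTCA, none of which overlap in these windows.
Anxa8: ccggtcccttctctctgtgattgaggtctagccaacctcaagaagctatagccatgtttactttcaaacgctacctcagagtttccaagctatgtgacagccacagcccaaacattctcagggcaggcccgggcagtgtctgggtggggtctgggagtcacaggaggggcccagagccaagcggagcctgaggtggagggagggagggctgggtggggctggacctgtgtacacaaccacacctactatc
S100a4: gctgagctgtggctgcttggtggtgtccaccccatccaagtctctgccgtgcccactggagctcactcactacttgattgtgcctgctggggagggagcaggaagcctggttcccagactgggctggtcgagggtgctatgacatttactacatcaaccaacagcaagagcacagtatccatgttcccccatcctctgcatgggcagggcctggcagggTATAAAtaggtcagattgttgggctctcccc
Anxa2: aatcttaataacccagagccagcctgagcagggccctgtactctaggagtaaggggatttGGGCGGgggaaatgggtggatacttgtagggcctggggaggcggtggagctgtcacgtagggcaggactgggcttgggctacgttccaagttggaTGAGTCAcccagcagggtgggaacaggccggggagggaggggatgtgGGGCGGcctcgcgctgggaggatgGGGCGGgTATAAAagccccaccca

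The window of Anxa8 held none of the 3 motifs. The window of S100a4 held TATAAA, its first base 31 bases before the gene start (position -31), and that of Anxa2 held all 3, with TGANTCA at -95, GGGCGG at -190, -48 and -24 and TATAAA at -17. Over the 8 windows, TATAAA was found in 3 (S100a4, Anxa1 and Anxa2), and TGANTCA and GGGCGG each in 2 (S100a11 and Anxa2). Among 32851 windows of the same length, 12.4% held TATAAA, 6.75% TGANTCA and 32.7% GGGCGG. A match describes these letters and no more.

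By the brightest probe set of each gene, Anxa8, S100a10 and S100a4 were called lower in MOSE-L cells than at both earlier stages. No member was called in this way between MOSE-I and MOSE-E cells. Anxa8 had the widest difference among the 9 genes, its mean MOSE-L signal being 5.08-fold lower than the MOSE-E mean and 8.91-fold lower than the MOSE-I mean. Of the 9 members, 3 were called lower and 0 higher in MOSE-L against MOSE-E cells, where 7.49% of all genes were called lower and 8.11% higher. The same 3 genes were called lower and 0 higher against MOSE-I cells, where 6.04% of all genes were called lower and 7.38% higher. The methods' t-test, unadjusted, called lower in MOSE-L cells only Anxa8 against MOSE-E cells, and Anxa8 and S100a10 against MOSE-I cells. Between MOSE-I and MOSE-E cells limma called 0 members, against 3.61% of all genes lower and 2.29% higher, while 2 members (Anxa3 and Anxa8) had an unadjusted p under 0.05 and the methods' t-test called 0. Without MOSE-L replicate 3 only Anxa8 was called lower in either MOSE-L comparison, a count of 1, and without MOSE-E replicate 2 or 3 the count against MOSE-E cells was likewise 1. The comparisons share arrays, so that they are not independent of each other.

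The median log2 change over the 9 members was -0.52 in MOSE-L against MOSE-E cells, beside 0.03 over all 7952 genes, and -0.70 against MOSE-I cells, beside -0.02. Between MOSE-I and MOSE-E cells it was 0.10, beside 0.03, and quantile normalization or median centring turned the sign of 6 of the 9 members (S100a4, S100a6, S100a10, S100a13, Anxa1 and Anxa2), so that no direction is given for them there. Both MOSE-L medians include MOSE-L replicate 3, the lowest MOSE-L array in 7 of the 9 members, and were not recomputed without it. Without it, MOSE-L against MOSE-E values moved from -0.31 to 0.05 for S100a6, -1.01 to -0.74 for S100a10 and -1.19 to -0.64 for S100a4. These are the members whose call or sign changed there. The arrays of MOSE-L and MOSE-E did not overlap in 4 members (44.8% of all genes), those of MOSE-I and MOSE-E in 3 (41.2%) and those of MOSE-L and MOSE-I in 7 (44.2%). The first of these counts is near the share over all genes and the last is above it, and no test was made of them.

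**Figure D1:**
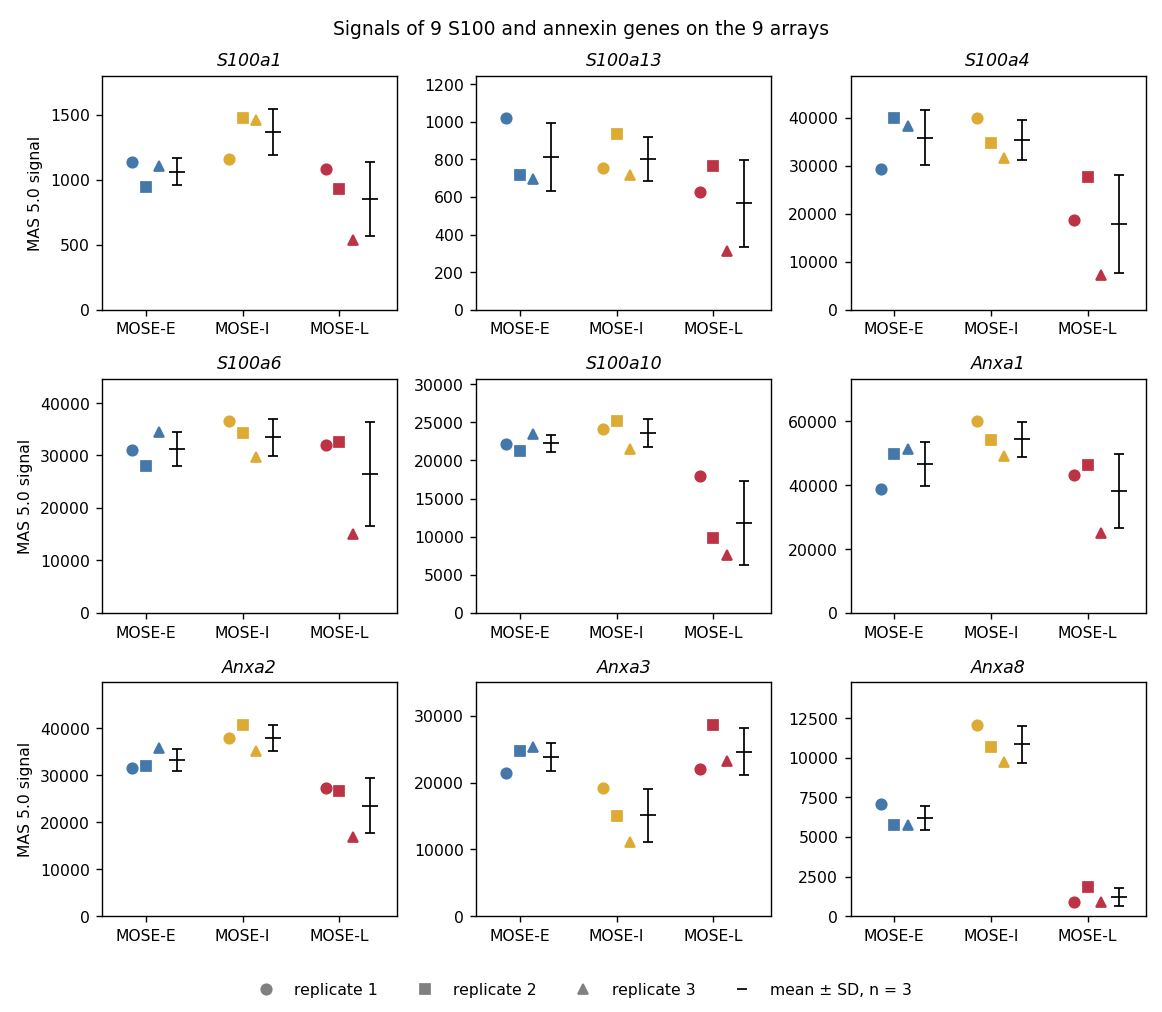
Linear MAS 5.0 signals (vertical axes, each from 0) of the 9 measured S100 and annexin genes on the 3 MOSE-E, 3 MOSE-I and 3 MOSE-L arrays, with marks for the replicates and bars for the mean ± SD (n = 3). Anxa8 falls to 881 to 1859 in MOSE-L cells, and replicate 3 is the lowest MOSE-L array in 7 of the 9 genes.

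MOSE-L replicate 3 gave the lowest MOSE-L signal in 7 of the 9 members, all but Anxa3 and Anxa8, whereas over all genes 38.0% had their lowest MOSE-L signal there. Its median difference from the other MOSE-L arrays was -0.83 on the log2 scale over the members and -0.02 over all genes. The ratio of the 3′ to the 5′ control signal of Actb was 1.83 on this array and 1.12 to 1.45 on the others, while that of Gapdh was 0.727 on it and 0.735 to 0.810 on the others. The part of RNA quality or of this culture in the low values was not tested. MOSE-I replicate 3 likewise gave the lowest MOSE-I signal in 8 of the 9 members, against 26.6% of all genes, but by a smaller median difference of -0.22.

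Anxa8, an annexin first described in human placenta as a relative of the anticoagulant Anxa5, gave signals of 7076, 5744 and 5746 on the MOSE-E arrays, 12101, 10709 and 9728 on the MOSE-I arrays and 881, 1859 and 913 on the MOSE-L arrays. The stages did not overlap, with MOSE-I highest and every MOSE-L array well below every other array. In the order of the stages, mean signals were 6189 ± 768, 10846 ± 1192 and 1218 ± 556 (SD, n = 3). Anxa8 was called lower in MOSE-L cells against both stages, with a log2 change of -2.38 against MOSE-E (SE 0.27, adjusted p = 0.000210) and of -3.18 against MOSE-I (SE 0.27, adjusted p = 4.91e-05). Its log2 change of 0.81 from MOSE-E to MOSE-I cells did not pass (adjusted p = 0.0752). Leaving out any 1 array kept both calls, with log2 changes of -2.71 to -2.19 against MOSE-E and -3.52 to -3.00 against MOSE-I cells.

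The second probe set of Anxa8 (1425789_s_at) gave 5038, 3595 and 3936 on the MOSE-E arrays, 10241, 7223 and 7780.2 on the MOSE-I arrays and 641, 1235 and 729 on the MOSE-L arrays. Its order of stages was that of the first probe set (1417732_at), again without overlap. It was called lower in MOSE-L cells against MOSE-E (log2 change -2.25, adjusted p = 0.000245) and MOSE-I cells (log2 change -3.24, adjusted p = 4.26e-05). At MOSE-I against MOSE-E it passed the p threshold (adjusted p = 0.0380), but its log2 change of 0.996 lay just under 1, so that it was not called.

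S100a10 gave 22111, 21247 and 23430 on the MOSE-E arrays, 24108, 25106 and 21527 on the MOSE-I arrays and 17946, 9825 and 7593 on the MOSE-L arrays. Both earlier stages lay in the same narrow range, and every MOSE-L array was below them, with replicate 1 nearest. In the order of the stages, mean signals were 22263 ± 1099.8, 23580.1 ± 1847 and 11788 ± 5448 (SD, n = 3). The log2 change was -1.01 for MOSE-L against MOSE-E (SE 0.26, adjusted p = 0.0189) and -1.09 for MOSE-L against MOSE-I (SE 0.26, adjusted p = 0.0159), and both were called. The value from MOSE-E to MOSE-I cells was 0.08 (adjusted p = 0.867). The call against MOSE-E cells was lost without MOSE-L replicate 3 (log2 change -0.74, adjusted p = 0.0463), without MOSE-L replicate 2 (adjusted p = 0.0505) and without MOSE-E replicate 2 (0.0546) or 3 (0.0702), and the call against MOSE-I cells was lost without MOSE-L replicate 3 (log2 change -0.82, adjusted p = 0.0391).

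The 3 tested probe sets of S100a10 disagreed. The bright probe set 1416762_at gave 20181, 19245 and 21300 on the MOSE-E arrays, 19633, 16618 and 17680.0 on the MOSE-I arrays and 13679.5, 8739 and 5752 on the MOSE-L arrays. It was called lower in MOSE-L cells, as was the probe set used above, with log2 changes of -1.19 against MOSE-E (adjusted p = 0.00893) and -1.02 against MOSE-I cells (adjusted p = 0.0197). The dim probe set 1439348_at gave 328, 789 and 528 on the MOSE-E arrays, 94.8, 114 and 88.7 on the MOSE-I arrays and 144, 399 and 304 on the MOSE-L arrays. It was lowest in MOSE-I cells, without overlap with either other stage, and was called lower in MOSE-I against MOSE-E cells (log2 change -1.93, adjusted p = 0.0147). Its log2 changes of -0.86 from MOSE-E to MOSE-L (adjusted p = 0.118) and 1.08 of MOSE-L against MOSE-I (adjusted p = 0.0561) were not called.

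**Figure D2:**
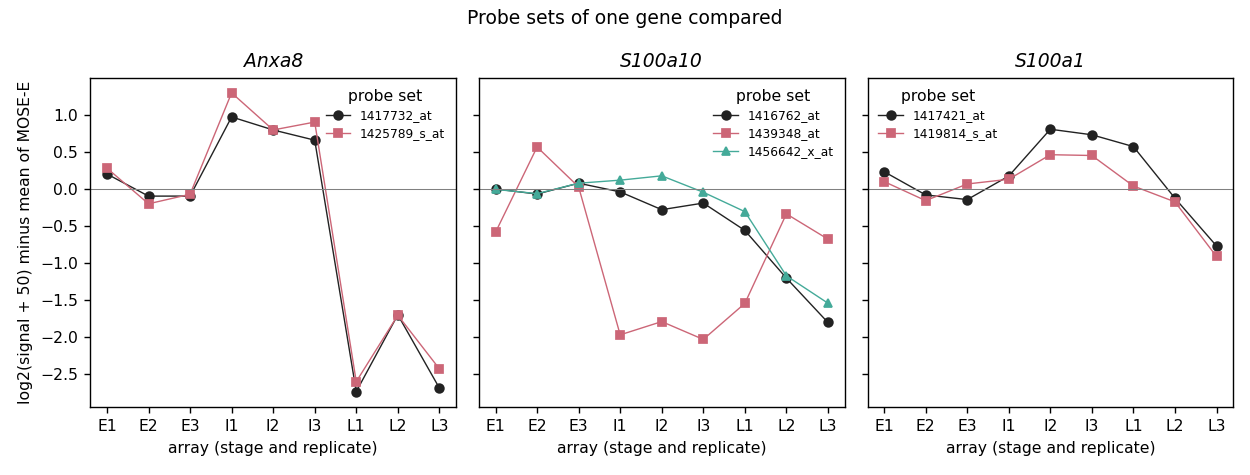
Log2 of the signal plus 50 on each array (horizontal axis, E1 to L3 for stage and replicate) minus the MOSE-E mean of the same probe set, for the tested probe sets of Anxa8, S100a10 and S100a1, with 1 line per probe set. The lines of Anxa8 run together and those of S100a1 part on MOSE-L replicate 1 (707 in 1417421_at against a MOSE-E mean of 464, 1087 in the other against 1062), while the dim S100a10 probe set 1439348_at is lower at MOSE-I (log2 change -1.93), where the bright probe sets stay near 0.

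Anxa2, the annexin that S100a10 binds, gave 31544, 32058 and 35852 on the MOSE-E arrays, 37954, 40797 and 35087 on the MOSE-I arrays and 27327, 26559.5 and 16772 on the MOSE-L arrays. All MOSE-L arrays were below all others, as for S100a10, but replicates 1 and 2 by much less than replicate 3. Mean signals were 33151 ± 2353, 37946 ± 2855 and 23553 ± 5885 (SD, n = 3). The log2 change against MOSE-I cells, -0.72 (SE 0.20), passed the p threshold (adjusted p = 0.0238) but not the required change of 1. Over fits without 1 array it ran from -0.84 to -0.49 (adjusted p 0.0124 to 0.0724), so that passing the p threshold depended on single arrays. The log2 change against MOSE-E cells, -0.52, passed neither (adjusted p = 0.0700). From MOSE-E to MOSE-I cells the value was 0.19 (adjusted p = 0.537). A dim second probe set (1437692_x_at) ran from 277 to 889 on the MOSE-E arrays, 546 to 1071 on the MOSE-I arrays and 549 to 659 on the MOSE-L arrays, with overlap and no call, and the third stayed under 500 on every array.

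S100a4 gave 29354, 39899 and 38397 on the MOSE-E arrays, 39934, 34783 and 31645 on the MOSE-I arrays and 18817, 27744 and 7258 on the MOSE-L arrays. Both earlier stages overlapped, and the MOSE-L arrays were all lower but far apart, with replicate 3 lowest. In the order of the stages, mean signals were 35883 ± 5704, 35454 ± 4185 and 17939.5 ± 10271 (SD, n = 3), a ratio of 2.00 between MOSE-E and MOSE-L. S100a4 was called lower in MOSE-L cells against MOSE-E (log2 change -1.19, SE 0.38, adjusted p = 0.0430) and MOSE-I cells (log2 change -1.18, SE 0.38, adjusted p = 0.0443), both near the threshold. From MOSE-E to MOSE-I cells the log2 change was -0.01 (adjusted p = 0.989). Without MOSE-L replicate 3 the log2 changes were -0.64 (adjusted p = 0.0592) and -0.63 (adjusted p = 0.0718), and both calls were also lost without any 1 of the 6 MOSE-E and MOSE-I arrays (adjusted p 0.0533 to 0.124 against MOSE-E and 0.0544 to 0.115 against MOSE-I cells).

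S100a6, which lies 6848 bases beyond S100a4 on chromosome 3, gave 30997, 28042 and 34523 on the MOSE-E arrays, 36490.3, 34194 and 29630.0 on the MOSE-I arrays and 31937, 32605 and 15059 on the MOSE-L arrays. MOSE-L replicates 1 and 2 lay within the MOSE-E range, and replicate 3 alone was low. Mean signals were 31188 ± 3245, 33438 ± 3492 and 26533 ± 9943 (SD, n = 3). No comparison passed, with log2 changes of -0.31 against MOSE-E (95% interval -0.90 to 0.28, adjusted p = 0.411) and -0.41 against MOSE-I cells (adjusted p = 0.258). The difference between the S100a4 and S100a6 changes was not tested.

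S100a1, best known as a regulator of calcium cycling in heart muscle, gave 1135, 942 and 1109 on the MOSE-E arrays, 1161, 1474 and 1463 on the MOSE-I arrays and 1087, 931 and 538 on the MOSE-L arrays. Every MOSE-I array was above every other array, replicate 1 by a small margin, and MOSE-E and MOSE-L overlapped. The log2 change of MOSE-L against MOSE-I was -0.70 (SE 0.24, adjusted p = 0.0528), that from MOSE-E to MOSE-I 0.35 (adjusted p = 0.360) and that from MOSE-E to MOSE-L -0.35 (adjusted p = 0.302), and none was called. The second probe set (1417421_at) gave 549, 432 and 411, then 525, 841 and 796, then 707, 417 and 249 in the same order of stages. There the stages overlapped, and no change was called.

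S100a13, which takes part in the release of the growth factor Fgf1 and of interleukin 1 alpha from stressed cells, gave 1018, 716 and 698 on the MOSE-E arrays, 753, 937 and 715 on the MOSE-I arrays and 625, 764 and 313 on the MOSE-L arrays. All 3 stages overlapped, and MOSE-L replicate 3 was again the lowest. No change was called, with log2 changes of -0.54 against MOSE-E (adjusted p = 0.184) and -0.54 against MOSE-I cells (adjusted p = 0.175). The gene ranges of S100a1 and S100a13 overlap head to head by 98 bases.

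Anxa1, a mediator of glucocorticoid action that inhibits phospholipase A2 and signals through formyl peptide receptors, gave 38678, 49892 and 51369 on the MOSE-E arrays, 59986, 54172 and 49057 on the MOSE-I arrays and 43115, 46388.5 and 25051 on the MOSE-L arrays. Its MOSE-L arrays were below all MOSE-I arrays and overlapped with MOSE-E, replicate 3 being the lowest of all 9. Mean signals were 46646 ± 6940.1, 54405 ± 5468 and 38185 ± 11491 (SD, n = 3). No change was called, with log2 changes of -0.33 against MOSE-E (adjusted p = 0.311) and -0.56 against MOSE-I cells (adjusted p = 0.0891). Its second probe set stayed under 500 on every array.

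Anxa3, an annexin known from neutrophil granules, was the only one of the 9 members with its lowest mean signal at the intermediate stage. It gave 21423, 24714 and 25286 on the MOSE-E arrays, 19152, 14971 and 11151 on the MOSE-I arrays and 22086, 28695 and 23189 on the MOSE-L arrays. All MOSE-I arrays were below all others, and MOSE-L overlapped with MOSE-E. Mean signals were 23808 ± 2085, 15092 ± 4002 and 24657 ± 3541 (SD, n = 3). The log2 change of MOSE-L against MOSE-I was 0.73 (SE 0.21), past the p threshold (adjusted p = 0.0278) and short of the required change of 1. Over fits without 1 array it ran from 0.53 to 0.92 (adjusted p 0.0153 to 0.102), so that passing the p threshold depended on single arrays. The log2 change from MOSE-E to MOSE-I was -0.69 (adjusted p = 0.0605). MOSE-L and MOSE-E cells differed by 0.04 (95% interval -0.42 to 0.51, adjusted p = 0.894). Whether its course differs from those of the other members was not tested.

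**Figure D3:**
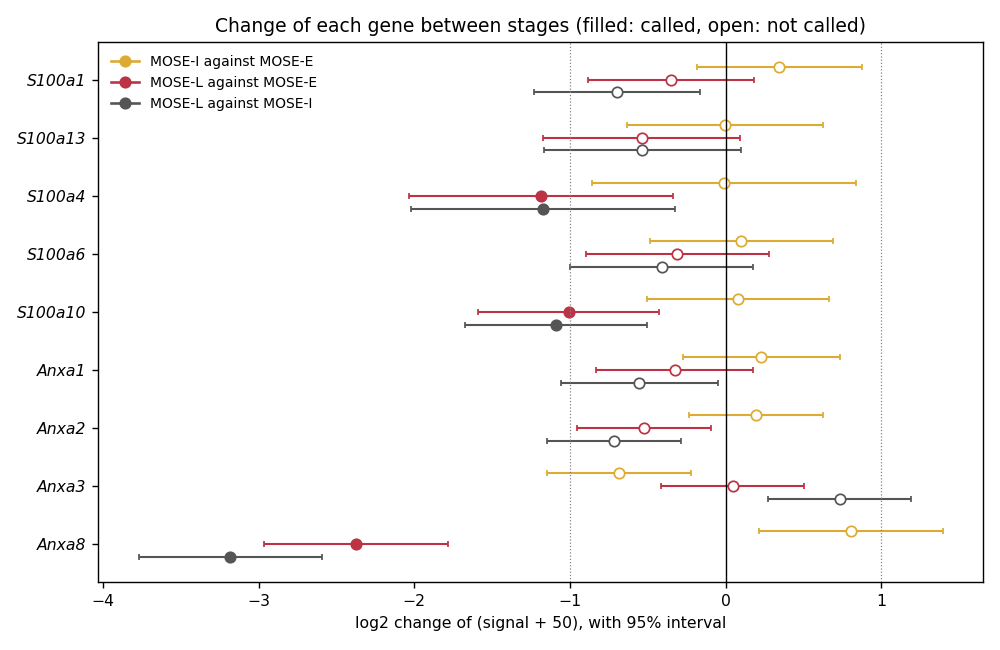
Log2 change of the signal plus 50 (horizontal axis) for each of the 9 genes in the 3 comparisons, with 95% intervals from the limma fit, filled where called, and with dotted lines at -1 and 1. Anxa8 lies farthest left at -2.38 and -3.18, S100a4 and S100a10 are the other filled points, and Anxa3 is alone in having its MOSE-L against MOSE-I change above 0, at 0.73.

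Outside the 9 members, 1 of 10 other S100 genes and 4 of 8 other annexins reached a signal over 500. The S100 gene was S100a16, a widely expressed calcium-binding member, which gave 3410.2, 2574 and 2422 on the MOSE-E arrays, 695, 1506 and 1310.0 on the MOSE-I arrays and 830, 427 and 433 on the MOSE-L arrays. Its MOSE-E arrays were all above the others, and MOSE-I and MOSE-L overlapped. Against MOSE-E cells it was called lower at both later stages, with a log2 change of -1.28 at MOSE-I (adjusted p = 0.0324) and -2.26 at MOSE-L (adjusted p = 0.000812), and the value between MOSE-I and MOSE-L was -0.99 (adjusted p = 0.0412), just short of the required change. The call in MOSE-I cells was lost without any 1 of the MOSE-E arrays or of MOSE-I replicates 1 and 3 (adjusted p 0.0634 to 0.120), and after median centring (adjusted p = 0.0523). A second S100a16 probe set was called lower in MOSE-L cells against both stages, by -2.36 and -1.52, and was not called in MOSE-I against MOSE-E cells (log2 change -0.84, adjusted p = 0.155).

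Of the remaining other S100 genes, 7 stayed under 500 on every array, and 2 had no probe set naming them alone. Among the first were S100a8 and S100a9, which are abundant in neutrophils, with highest signals of 52.2 and 33.9. The 13 S100 genes listed here on chromosome 3 include all 6 members. S100a4 lies 92.7 kb and S100a16 26.2 kb from S100a1 by their lowest coordinates, while S100a10 lies 3044 kb away.

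**Figure D4:**
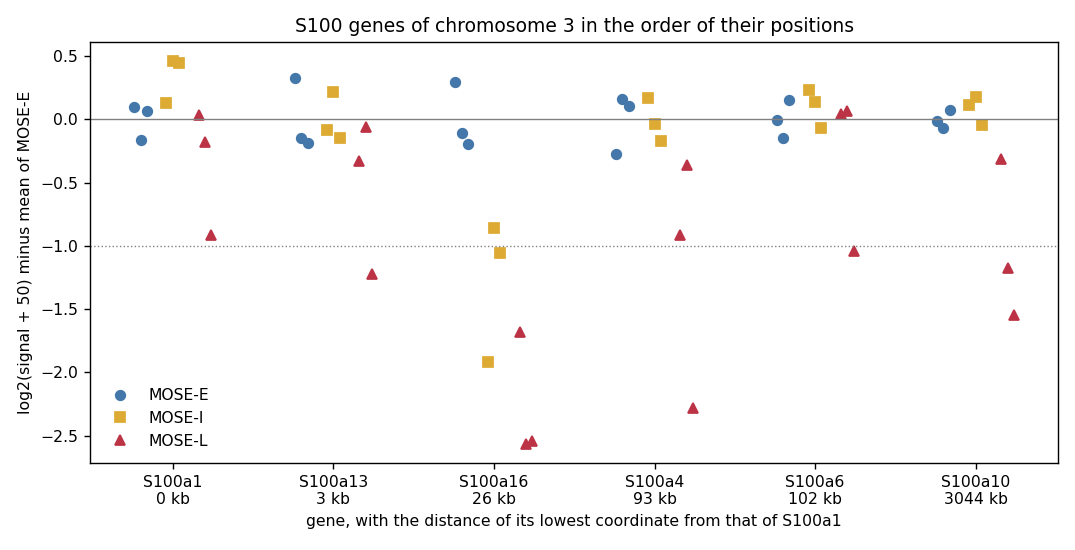
Log2 of the signal plus 50 minus the MOSE-E mean (vertical axis) on each array for the 6 S100 genes of chromosome 3 that passed 500 on any array, in the order of their positions, with the distance of each from S100a1 in kb. S100a16 is already lower at MOSE-I (mean change -1.28), S100a4 and S100a10 are lower at MOSE-L, and single low MOSE-L arrays appear in S100a1, S100a13 and S100a6.

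Of the other annexins, 3 stayed under 500 on every array, and Anxa11 had no probe set naming it alone. None of the 4 tested ones (Anxa4, Anxa5, Anxa6 and Anxa7) was called by limma in any comparison through any tested probe set. By the brightest probe set of each, only Anxa4, in MOSE-I against MOSE-E cells, had an unadjusted p under 0.05. Anxa4, an annexin of secretory epithelia, gave 2336, 1766 and 1962 on the MOSE-E arrays, 2883, 3814 and 3494 on the MOSE-I arrays and 3288, 2343 and 2103 on the MOSE-L arrays. Its MOSE-I arrays were all above the MOSE-E arrays, with a log2 change of 0.73 (adjusted p = 0.0538). Anxa5, widely used as a probe for dying cells, ran from 11748 to 15154 on the MOSE-E arrays, 9170.1 to 16493 on the MOSE-I arrays and 9471 to 16254 on the MOSE-L arrays, with overlap throughout. The brightest probe sets of Anxa6 (625 to 2743 over all arrays) and Anxa7 (2695 to 4137) overlapped between all stages as well. Their dimmer probe sets did not all do so. Anxa6 probe set 1429247_at gave 230, 550.0 and 384 on the MOSE-E arrays, 52.5, 175 and 101 on the MOSE-I arrays and 99.8, 257 and 328 on the MOSE-L arrays. It was lower on all MOSE-I than on all MOSE-E arrays, with a log2 change of -1.46 that was not called (unadjusted p = 0.00846, adjusted p = 0.0645).

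Anxa6 probe set 1429246_a_at was lower on all MOSE-L than on all MOSE-E arrays (log2 change -0.86, adjusted p = 0.179). Anxa7 probe set 1438764_at lay between 43.0 and 93.4 on the MOSE-I arrays, below all MOSE-E arrays (98.3 to 239, log2 change -0.67, adjusted p = 0.436) and all MOSE-L arrays (102 to 503, log2 change 1.17, adjusted p = 0.123). The third Anxa7 probe set, 1416137_at, overlapped throughout. Of the dimmer Anxa4 probe sets, 1424176_a_at was higher on all MOSE-I than on all MOSE-E arrays (log2 change 0.70, unadjusted p = 0.0126, adjusted p = 0.0777), and 1457658_x_at was lower on all MOSE-L than on all MOSE-I arrays (log2 change -0.50, adjusted p = 0.141).

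Of 32 genes of binding partners and receptors, 18 were measured. By the brightest probe set of each, 1 of the 18 was called higher and 0 lower in MOSE-L against MOSE-E cells (8.11% and 7.49% of all genes), 0 higher and 1 lower in MOSE-I against MOSE-E (2.29% and 3.61%) and 1 higher and 0 lower in MOSE-L against MOSE-I (7.38% and 6.04%). These few calls are not read as a result about the list. The higher gene was Plat, tissue plasminogen activator, which gave 1384, 869 and 660.4 on the MOSE-E arrays, 983, 1318 and 1405 on the MOSE-I arrays and 2955, 5773 and 1939 on the MOSE-L arrays. Its MOSE-L arrays were all above the others but differed up to several fold among themselves. The log2 change was 1.74 against MOSE-E (adjusted p = 0.00758) and 1.36 against MOSE-I cells (adjusted p = 0.0238), and the second call was lost without MOSE-L replicate 2 (log2 change 0.94, adjusted p = 0.0587) or any 1 MOSE-I array (adjusted p 0.0505 to 0.0758). Both Plat calls, against MOSE-E and against MOSE-I cells, were lost with the methods' t-test, whether adjusted by Benjamini-Hochberg or not. The lower gene was Plaur, the urokinase receptor, which gave 2326, 2958 and 3098 on the MOSE-E arrays, 1381, 833 and 1025 on the MOSE-I arrays and 798, 1549 and 2410.3 on the MOSE-L arrays.

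Myh9, the non-muscle myosin heavy chain that S100a4 binds, was called lower through 1 of its 4 tested probe sets, a fact that was singled out after its values were seen. This probe set, 1420170_at, gave 1254, 2547 and 1909 on the MOSE-E arrays, 580.4, 852 and 1086 on the MOSE-I arrays and 655, 1113 and 748 on the MOSE-L arrays. Its MOSE-E arrays were above all others, and its log2 changes were -1.12 in MOSE-I (adjusted p = 0.0428) and -1.11 in MOSE-L cells (adjusted p = 0.0218), both against MOSE-E. The brightest Myh9 probe set, 1420171_s_at, gave -0.53 and -0.50 (adjusted p = 0.201) there, neither of them called, and the other two, 1417472_at and 1420172_at, gave -0.96 to -0.88 without a call.

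Plaur was lower on all MOSE-I than on all MOSE-E arrays (log2 change -1.35, adjusted p = 0.0347), and its MOSE-L arrays spread across both ranges. Without MOSE-L replicate 3, which gave its highest MOSE-L signal, Plaur was also called lower in MOSE-L against MOSE-E cells (log2 change -1.28, adjusted p = 0.0145), against -0.92 (adjusted p = 0.0687) with all arrays. The call in MOSE-I cells was lost without MOSE-E replicate 2 or 3 or MOSE-I replicate 2 or 3 (adjusted p 0.110 to 0.142). Plasminogen (Plg), urokinase (Plau) and the receptors Ager, which binds several S100 proteins, and Fpr2, which binds Anxa1, stayed under 500 on every array.

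**Figure D5:**
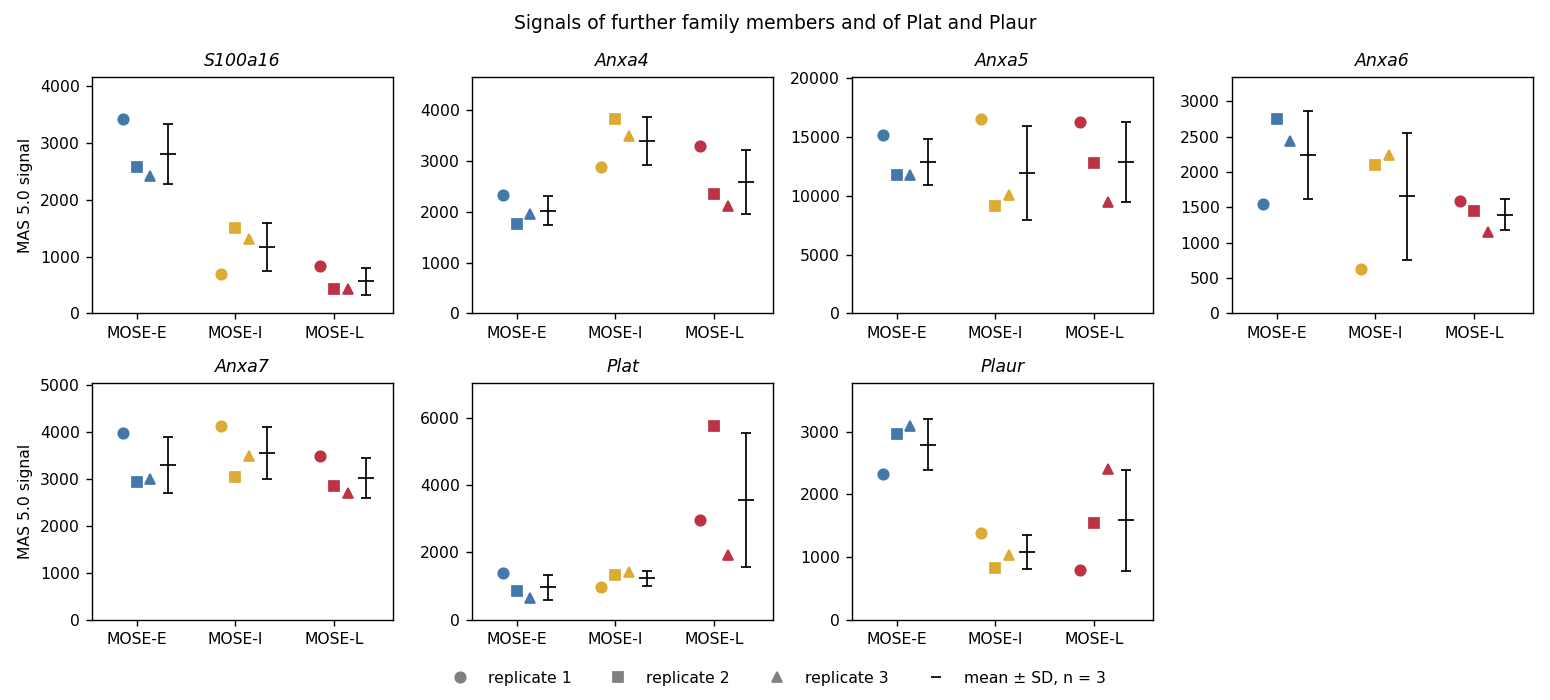
Linear MAS 5.0 signals (vertical axes, each from 0) of S100a16, of the other annexins Anxa4 to Anxa7 and of Plat and Plaur on the 9 arrays, with marks for the replicates and bars for the mean ± SD (n = 3). S100a16 is highest in MOSE-E (2422 to 3410.2), Plat is highest in MOSE-L (1939 to 5773), and the stages of Anxa5, Anxa6 and Anxa7 overlap in the brightest probe set of each gene, the one plotted.

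For each member the gene with the most similar pattern was sought among 7943 other genes by Pearson's r over the 9 arrays, which fall into 3 stages and share their cultures, so that r is a description without a test. The most similar genes were Nol11 for Anxa8 (r = 0.992), Top2a for S100a4 (r = 0.994), Fkbp1a for S100a10 (r = 0.986) and Nono for Anxa2 (r = 0.982). For the remaining members they were Tubgcp2 for S100a6 (r = 0.953), Mrpl51 for S100a1 (r = 0.982), Ankrd13a for S100a13 (r = 0.977), Tubb5 for Anxa1 (r = 0.955) and Lrrk1 for Anxa3 (r = 0.956). No member shared its most similar gene with another.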

How the data were processed

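RNA of 9 MOSE cell cultures, 3 per stage by the labels, was hybridized to Affymetrix Mouse Genome 430 2.0 arrays. The deposited intensities are MAS 5.0 signals, which the authors had brought to a trimmed mean of 500 on every array, and signals of different genes are not comparable. Gene symbols came from the platform annotation and positions from RefSeq (GRCm38.p6). Of 45101 probe sets, 64 controls were left out and 13845 with a highest signal over 500 were kept. Log2 of the signal plus 50 was fitted in limma 3.58.1 (R 4.3.3) with 1 mean per stage over all 9 arrays and a variance trend (degrees of freedom: 6 residual, 4.9 prior at the median). P-values were adjusted by Benjamini-Hochberg over all 13845 probe sets, and the fit was checked on simulated data. The simulated arrays had independent noise and no deviant array, so they cannot show how calls depend on 1 array. The added 50 understates folds of dim genes. Over all probe sets but the controls, before the filter, 32.4% of signals lay under 50, and the share among the 13845 kept was not computed. The study's methods used a t-test on linear signals and a fold over 2, run here as an alternative.

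The members, the gene lists and the tests were chosen with earlier results of these data known. Every probe set of the members was described. The text also names the tested relatives, the partners called by their brightest probe set and, by symbol, the gene most similar to each member. Alternatives changed the added value, scaling, filter, variance model, arrays in the fit, threshold, test and probe set, used the replicate number as a block, or left out 1 array at a time. The 3 arrays per stage limit the precision. Detection calls were not used here, and markers of other cell types were given as values.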

Additional observations from a re-analysis of the deposited data

How the results depend on the processing

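As reported, 3 members were called in MOSE-L against MOSE-E cells, 0 in MOSE-I against MOSE-E and 3 in MOSE-L against MOSE-I. The count against MOSE-E fell to 1 (Anxa8) with no filter on signal, with 0.01 as the limit of the adjusted p and with the methods' t-test, unadjusted or after Benjamini-Hochberg. The count against MOSE-I became 1 (Anxa8) after quantile normalization and with that limit, 5 with no minimum fold (1 higher and 4 lower, Anxa3 and Anxa2 added), and 0 with the t-test after Benjamini-Hochberg. With any probe set of a gene counted, 1 member was called between MOSE-I and MOSE-E cells, S100a10 through its dim probe set. In fits without 1 array there were 1 to 3 called members against MOSE-E and 1 to 3 against MOSE-I cells, and without MOSE-L replicate 3 only Anxa8 was called in either. With the replicate number as a block the member counts were 3, 0 and 3, and the S100a16 call in MOSE-I cells was lost (adjusted p = 0.0503). Correlations of the deviations of arrays from their stage means ran from -0.11 to 0.41 between same-numbered arrays of different stages. Between unlike-numbered arrays they ran from -0.49 to 0.24. The same-numbered MOSE-E and MOSE-L arrays gave 0.41, 0.26 and 0.02. Whether equal numbers mark paired cultures was not tested. Anxa8 kept both MOSE-L calls in all alternatives except the t-test after Benjamini-Hochberg against MOSE-I cells (adjusted p = 0.0592). S100a4 changed its call against MOSE-E cells in 13 of 23 alternatives and S100a10 in 10 of 23. Against MOSE-I cells S100a4 did so in 14 of 23 and S100a10 in 4 of 23. The causes of these changes were not tested.

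Some values that were not called turned sign. Median centring moved the median change of all probe sets to 0.14 between MOSE-I and MOSE-E and to -0.18 between MOSE-L and MOSE-I cells. There it gave MOSE-I against MOSE-E values of 0.13 for S100a4 and 0.13 for S100a13, and a MOSE-L against MOSE-I value of -0.051 for Anxa5. Quantile normalization gave MOSE-I against MOSE-E values of -0.25 for S100a6, -0.11 for S100a10, 0.037 for S100a13, -0.18 for Anxa1 and -0.20 for Anxa2, and a MOSE-L against MOSE-E value of 0.027 for Anxa5. Over fits without 1 array, MOSE-L against MOSE-E values ran from -0.069 to 0.12 for Anxa3, -0.21 to 0.17 for Anxa5, -0.23 to 0.017 for Anxa7 and -0.50 to 0.054 for S100a6. MOSE-I against MOSE-E values ran from -0.12 to 0.16 for S100a13, -0.15 to 0.072 for S100a4, -0.41 to 0.010 for Anxa5 and -0.0027 to 0.25 for Anxa7, and MOSE-L against MOSE-I values from -0.062 to 0.38 for Anxa5 and -0.63 to 0.25 for Anxa6.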
